A study of Mus musculus with 2 samples.

Results

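The Zfp genes encode proteins with C2H2 zinc fingers, short folds held together by zinc that bind DNA, and most of the numbered members lie in tandem arrays that arose by gene duplication. The genes described here are the protein-coding genes whose symbol is Zfp followed by digits only, without Zfp36, and whose span lies within 100 kb of the span of another such gene on the same chromosome. Of 366 numbered Zfp genes in the RefSeq annotation of GRCm38.p6, the assembly of mm10, 212 met this rule, and the other 154 lay outside such clusters. The 212 genes formed 52 clusters, 23 of them pairs, among 21896 protein-coding genes in all. Just inside the limit lay Zfp932 and Zfp605, 97.8 kb apart, with highest fold enrichments of 4.76 and 13.6. Just outside it lay Zfp715 and Zfp936, 104.4 kb apart, with 12.5 in the first and no peak in the second.

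The assay was MeRIP-seq, in which RNA fragments that carry N6-methyladenosine (m6A), a methylated adenosine within mRNA, are pulled down with an antibody and sequenced, here from wild-type mouse uterus. Females aged 6 to 8 weeks were mated with fertile males and taken on gestational day 4, with the day of the plug as day 1. The labels give 1 sample of polyA RNA enriched with an anti-m6A antibody (IP) and 1 input sample without antibody, both from mixed cell types and both wild-type. With 1 sample of each there is no spread between animals, no test between groups is possible, and library depth is not stated in the labels. The IP sample has a deposited list of 26584 peaks. Every one of the 26584 is named after a run called D8NegIP-Posinput. That is not the day in the labels, so whether they belong to the day 4 sample, and which library served as background, is unsettled for every value below.

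Many clustered zinc finger proteins carry a KRAB domain, which recruits the corepressor TRIM28 and through it the histone methyltransferase SETDB1. They are best known for silencing retroelements and for keeping imprints. In most of these genes the array of fingers is encoded by a single long last exon. In mammalian mRNA, m6A is known to be found most often in long exons and around the stop codon.

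A peak was counted for a gene when its summit lay in the gene's span. The fold enrichment of a peak is the peak caller's own ratio of IP pileup to background at the summit, with 1 added to each. The pileup is the number of IP fragments over the summit, and the background is given on the scale of the IP library. Ranges after a fold enrichment are 95% exact Poisson intervals of the pileup with the background taken as known. Ranges after a share are Wilson 95% intervals, and those after a median are 95% order-statistic intervals. All of them treat fragments or genes as independent, although neighbouring members share sequence, and cover counting error only.

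Tandem duplication leaves near-identical copies among these genes, and the promoters of the closest pairs are shown as a picture of that likeness. These bases lie before the transcription start and are not part of the RNA that was sequenced, so they do not show whether reads were shared between copies. Of the 212 members, 183 had at least 1 promoter in the RefSeq sequence table of GRCm38.p6. The 3 pairs most alike over the 300 bases around the start are shown by the 250 bases before the start, 5′ to 3′. Capitals mark bases that differ or have no partner in the alignment of a pair.
Zfp971 (chr2:178023034-178023283, plus strand): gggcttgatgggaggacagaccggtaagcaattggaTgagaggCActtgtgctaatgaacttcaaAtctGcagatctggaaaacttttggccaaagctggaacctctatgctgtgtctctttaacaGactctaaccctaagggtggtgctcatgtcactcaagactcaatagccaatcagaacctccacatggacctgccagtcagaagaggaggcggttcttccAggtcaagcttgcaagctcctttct
Zfp965 (chr2:175469775-175470024, plus strand): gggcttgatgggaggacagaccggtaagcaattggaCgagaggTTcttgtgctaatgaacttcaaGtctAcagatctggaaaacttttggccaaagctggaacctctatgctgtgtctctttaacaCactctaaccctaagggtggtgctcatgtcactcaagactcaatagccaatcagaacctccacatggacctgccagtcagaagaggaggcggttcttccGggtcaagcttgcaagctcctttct
Zfp758 (chr17:22361213-22361462, plus strand): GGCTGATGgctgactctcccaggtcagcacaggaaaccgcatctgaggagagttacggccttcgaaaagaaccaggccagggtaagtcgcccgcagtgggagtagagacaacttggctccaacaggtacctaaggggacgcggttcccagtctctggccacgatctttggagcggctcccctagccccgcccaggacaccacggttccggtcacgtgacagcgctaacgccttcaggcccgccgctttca
Zfp943 (chr17:21962309-21962558, plus strand): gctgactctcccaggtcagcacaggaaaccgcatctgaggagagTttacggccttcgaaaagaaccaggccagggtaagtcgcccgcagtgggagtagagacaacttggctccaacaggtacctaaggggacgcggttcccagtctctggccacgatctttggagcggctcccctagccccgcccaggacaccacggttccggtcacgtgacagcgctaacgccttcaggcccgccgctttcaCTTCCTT
Zfp979 (chr4:147642509-147642758, minus strand): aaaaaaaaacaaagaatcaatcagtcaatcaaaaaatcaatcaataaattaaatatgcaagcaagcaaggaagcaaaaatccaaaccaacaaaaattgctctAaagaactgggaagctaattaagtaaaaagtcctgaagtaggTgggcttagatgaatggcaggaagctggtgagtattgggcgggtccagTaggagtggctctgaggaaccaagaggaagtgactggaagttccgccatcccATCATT
Zfp600 (chr4:146156577-146156826, plus strand): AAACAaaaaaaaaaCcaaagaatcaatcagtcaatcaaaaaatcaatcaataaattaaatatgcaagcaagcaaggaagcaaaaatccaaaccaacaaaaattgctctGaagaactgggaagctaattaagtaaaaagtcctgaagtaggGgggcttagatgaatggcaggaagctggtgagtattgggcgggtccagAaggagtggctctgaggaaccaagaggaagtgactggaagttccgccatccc
In the first pair 243 of the 250 bases were identical, with 7 mismatches and no gap. Zfp971 had 2 peaks, with fold enrichments of 7.17 and 7.52, and Zfp965, which lies in another cluster on the same chromosome, had none. In the second pair 242 bases were identical, and the others had no partner. Both genes had peaks, 6 in Zfp758 with at most 7.87 and 1 in Zfp943 with 8.86. In the third pair 241 bases were identical, with 3 mismatches. Zfp979 had 1 peak with 4.26, and Zfp600 had none. So 2 of the 3 closest pairs held 1 gene with a peak and 1 without.

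Nearly all clustered Zfp genes carried a peak. Of the 212 members, 197 had at least 1 (92.9%, 88.7 to 95.7), against 44.9% of all protein-coding genes. Of the 154 Zfp genes outside clusters, 130 had a peak (84.4%, 77.9 to 89.3). This interval overlaps that of the clustered genes only from 88.7 to 89.3, and overlap does not show that the shares are alike. These shares are over annotated genes, whether or not they are expressed in uterus. Read depth outside peaks is not analysed here, so the shares do not tell expression from methylation. The uterus is a mixture of cell types, so fewer cells of a type and less RNA per cell cannot be told apart here. When only peaks from −log10 q 5 upwards were kept, 188 members (88.7%) had one, against 41.3% of protein-coding genes. In 15 members peaks lay only where another gene overlaps the span, and 182 of the 197 members with a peak had one in their span alone. The same held for 8947 of 9828 protein-coding genes with a peak and 126 of the 130 Zfp genes outside clusters.

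Longer genes have peaks more often, so the share was also set out by span. The span of the members had a median of 15.8 kb (quartiles 12.1 and 25.9), close to the 17.1 kb of all protein-coding genes (quartiles 5.65 and 44.3). Among genes of 10 to 20 kb, 90 of 95 members had a peak (94.7%, 88.3 to 97.7), against 46.4% of 3921 protein-coding genes. Among genes under 10 kb the members stood at 27 of 30 (90%) and all protein-coding genes at 27.3%. From 20 to 50 kb the members stood at 75 of 81 (92.6%, 84.8 to 96.6), all protein-coding genes at 51.1% and the Zfp genes outside clusters at 34 of 46 (73.9%, 59.7 to 84.4). In that class the interval outside clusters lay below that of the members. In the 2 shorter classes the Zfp genes outside clusters were nearer the members. They stood at 21 of 24 (87.5%, 69.0 to 95.7) under 10 kb and 45 of 52 (86.5%, 74.7 to 93.3) from 10 to 20 kb. From 50 kb upwards the order was turned, with 30 of 32 (93.8%) outside clusters and 5 of 6 members (83.3%, 43.6 to 97.0). The share of members with a peak thus stayed near or above 90% in the 3 classes that held all but 6 of them.

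**Figure D1:**
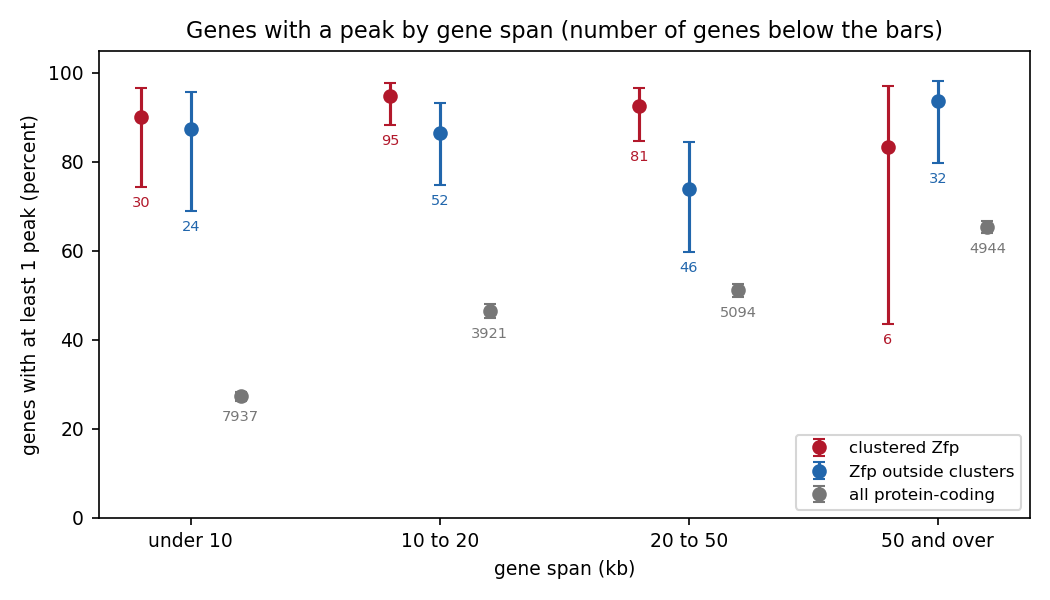
Share of genes with at least 1 peak (percent, vertical axis) by gene span in kb (horizontal axis), for clustered Zfp genes, Zfp genes outside clusters and all protein-coding genes; points are shares, bars are Wilson 95% intervals and the numbers printed under the bars are genes. In the class of 10 to 20 kb the clustered genes stand at 94.7% and all protein-coding genes at 46.4%.

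Other genes at the same places were also counted. Inside the 52 clusters lay 42 protein-coding genes that are not numbered Zfp genes, with a median span of 11.2 kb. Of these, 22 had a peak (52.4%, 37.7 to 66.6), an interval below that of the clustered Zfp genes. The 42 genes were not sorted by family and can include other zinc finger genes.

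The members' peaks were moderate in height. The highest fold enrichment per gene had a median of 9.86 (9.37 to 10.9; quartiles 7.55 and 12.8) over the 197 members with a peak. The median was 9.36 (9.23 to 9.46) over all protein-coding genes with a peak and 11.7 (10.5 to 12.5) over the Zfp genes outside clusters. A value of at least 10 was reached by 97 of the 197 (49.2%), against 45.0% of protein-coding genes with a peak and 62.3% of the Zfp genes outside clusters. Only 2 members reached 20, a share of 1.02%, compared with 5.76% of all protein-coding genes with a peak and 11 of the 130 outside clusters (8.46%). The background at the strongest peak had a median of 1.54 in the clustered genes and in all protein-coding genes, and of 1.90 in the Zfp genes outside clusters. The members' strongest peaks rested on a median of 24 fragments. In 17 members it rested on fewer than 10, and in 157 the lower bound of the interval lay above 4.

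The 15 leading members, ranked by the fold enrichment of peaks whose −log10 q reached 5, came from 11 clusters on 7 chromosomes. Zfp981 led with 32.8 (25.8 to 41.2) from 73 fragments over a background of 1.25, at chr4:146505005-146505532. This summit lay 3.36 kb from the 5′ end of a span of 37.4 kb, and it also lay in the span of the pseudogene Vmn2r-ps16, so it cannot be given to either. Zfp719 followed with 21.9 (16.2 to 29.0) at chr7:43589208-43589591. Then came Zfp27 with 19.2 (14.1 to 25.6), Zfp180 with 18.7 (14.0 to 24.5) and Zfp316 with 18.7 (12.9 to 26.1). The intervals of neighbours in this order overlapped throughout, Zfp981 and Zfp719 included.

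Zfp866, at 18.6, Zfp248, at 18.5, and Zfp746, at 18.1, came next. Zfp746 encodes PARIS, a repressor that the ubiquitin ligase parkin marks for degradation. Zfp809, whose protein binds the primer binding site of retroviruses and recruits TRIM28, had 17.8 (13.6 to 23.0) at chr9:22238439-22239880. Zfp146, at 17.4 (14.4 to 20.9), encodes a protein made almost entirely of zinc fingers. Zfp260, a regulator of heart muscle genes, had 17.4 (14.1 to 21.3), and Zfp282, Zfp324, Zfp108 and Zfp263 closed the list with 17.3, 17.2, 17.0 and 16.9. The strongest Zfp263 peak, at chr16:3744125-3744766, had its summit 479 bp from the 5′ end of the span, and that of Zfp108 lay 390 bp from the 3′ end.

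Ranked by significance, the leading members were those with many fragments. Zfp146 had the highest −log10 q, 102.2, from 117 fragments at chr7:30160816-30163219 over a background of 5.77. Zfp981 had 95.8, Zfp260 83.5 from 94 fragments, Zfp7 80.7 from 94 fragments and Zfp871 70.7 from 86 fragments. Among the strongest peaks of the members, that of Zfp266 had the highest background, 6.73, with a fold enrichment of 9.83 (7.76 to 12.3). Zfp146, Zfp868, Zfp7 and Zfp871 were the next 4 by the background of their strongest peak. Weaker peaks of members reached higher backgrounds, up to 8.27 in Zfp981. At like backgrounds their fold enrichments ranged from 4.67 in Zfp868 to 17.4 in Zfp146, and those 2 intervals (3.13 to 6.72 and 14.4 to 20.9) did not overlap.

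At the low end stood Zfp931 with 3.75 (2.201 to 6.03), Zfp825 with 4.22 (2.55 to 6.61), Zfp979 with 4.26 (2.62 to 6.60), Zfp994 with 4.49 (2.54 to 7.46) and Zfp868 with 4.67 (3.13 to 6.72). These 5 values came from 13 to 27 fragments over backgrounds of 2.11 to 4.998. The thinnest strongest peak of any member rested on 5 fragments.

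Members known for a defined target were spread over the range. Zfp932, which represses endogenous retroviruses of the ERVK class, had a single peak of 4.76 (2.64 to 8.04) from 12 fragments. Zfp708, which acts on a family of retroelements in the early embryo, had 2 peaks, at 8.16 and 8.36 (5.06 to 13.1). Zfp568, which represses a placental transcript of Igf2, had 2 peaks, the higher at 10.5 (7.72 to 14.1). Zfp445, a regulator of imprinted regions that was chosen after its values were seen, had 8.71 (6.79 to 11.0) and 10.8 (7.83 to 14.6). Zfp809 stood above Zfp932 by an interval that did not overlap, whereas the intervals of Zfp708, Zfp568 and Zfp445 overlapped each other. Of further members, Zfp30 had 16.7 (11.1 to 24.2), Zfp28 12.0 (8.24 to 17.0), Zfp961 9.31 (6.49 to 13.0) and Zfp110, the gene of a protein that binds a neurotrophin receptor, 5.15 (3.28 to 7.76).

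Most members with a peak had 1 or 2. A single peak was found in 72 of the 197 genes and 2 in 71. With 5 or more peaks there were 10 of the 212 members (4.72%), near the 5.10% of all protein-coding genes, and 17 of the 154 Zfp genes outside clusters (11.04%). Of all 212 members, 125 had at least 2 peaks (59.0%), against 26.2% of protein-coding genes and 59.1% of the Zfp genes outside clusters. In all, 408 different peaks lay in the members' spans, 8 of them in the spans of 2 members, and 45 lay in the span of at least 1 further gene. The most peaks, 7, fell in Zfp978, whose span of 267.1 kb overlaps that of Zfp991. Zfp758, Zfp981, Zfp748 and Zfp316 had 6 each, and Zfp993, Zfp59, Zfp282, Zfp174 and Zfp809 had 5. All 5 of Zfp993 also lay in the span of a gene without a name, LOC115486238. In Zfp316 the 6 values ran from 5.21 to 18.7. In Zfp748 they ran from 4.22 to 8.16, and in Zfp59 from 4.26 to 7.84, so a gene with many peaks did not need a high one. Of the 5 peaks of Zfp809, all but the strongest lay in the span of Zfp599 too. Both peaks of Zfp597 were shared with Zfp174.

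The peaks of the members lay mostly towards the 3′ end. Strand was taken from the promoter table, which covered 183 members and 17491 protein-coding genes. Of 351 summits in members of known strand, 210 (59.8%, 54.6 to 64.8) lay in the last 25% of the span, against 47.4% of summits in all protein-coding genes and 49.6% (43.3 to 55.8) in the Zfp genes outside clusters. Among spans of 5 to 50 kb the share was 61.6% (56.2 to 66.6) in the members and 48.2% in all protein-coding genes. In the Zfp genes outside clusters it was 54.7% (47.2 to 62.0), an interval that overlaps that of the members. The commonest place over all spans was from 80 to 90% of the way along, with 108 summits (30.8%). All protein-coding genes had 13.9% there, and the Zfp genes outside clusters 17.8%. In the last 10% the order was turned, with 20.8% (16.9 to 25.3) in the members and 29.0% in all protein-coding genes. The Zfp genes outside clusters stood between, at 24.4% (19.4 to 30.2), with an interval that overlaps that of the members. At the other end, 17 summits (4.84%, 3.05 to 7.62) lay in the first 10%, against 12.1% in protein-coding genes. The Zfp genes outside clusters, at 5.79% (3.48 to 9.48), shared this low value.

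**Figure D2:**
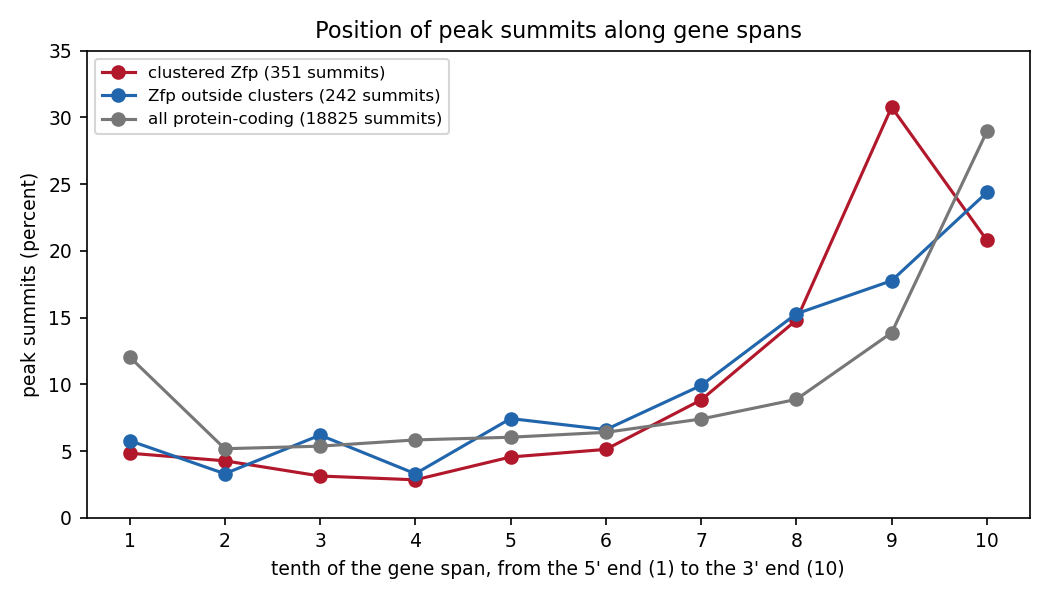
Share of peak summits (percent, vertical axis) in each 10% of the gene span from the 5′ end to the 3′ end (horizontal axis), for clustered Zfp genes, Zfp genes outside clusters and all protein-coding genes of known strand. The clustered genes have their maximum, 30.8%, from 80 to 90% of the span, and all protein-coding genes theirs, 29.0%, in the last 10%.

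Counted in distance, the strongest peaks stood a few kb short of the 3′ end of the span. Of the 170 members of known strand with a peak, 109 (64.1%, 56.7 to 70.9) had the strongest summit 1 to 5 kb before that end, against 37.2% of protein-coding genes with a peak. Within 1 kb of the end lay 17 (10%, 6.34 to 15.4), against 17.7%. The median distance was 2.62 kb in the members, 2.99 kb in the Zfp genes outside clusters and 3.93 kb in all protein-coding genes. When only genes with spans of 5 to 50 kb were compared, the shares at 1 to 5 kb were 64.8% (57.2 to 71.7) in the members, 62.8% (51.7 to 72.7) in the Zfp genes outside clusters and 39.7% in all protein-coding genes. At like span, clustered and other Zfp genes therefore lay within each other's intervals, and both lay above protein-coding genes at large. Exons are not in the tables used here, so whether a summit lies in coding sequence, a UTR or an intron is not known.

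Peaks at the 5′ end were few, and their fold enrichments ran from 4.19 to 16.9. In members of known strand, 13 of 351 summits (3.70%, 2.18 to 6.23) lay within 1 kb of the 5′ end, against 10.03% in protein-coding genes. In the Zfp genes outside clusters the share was 4.96% (2.86 to 8.47), with an interval that overlaps that of the members. The highest of the members' 13 was that of Zfp263, at 16.9, a gene whose protein carries both a SCAN and a KRAB domain. Zfp30 had 12.2 (7.94 to 18.1) at 639 bp, Zfp61 had 11.5 (7.67 to 16.7) at 959 bp in a peak shared with Zfp94, and Zfp768 had 11.02 (7.22 to 16.2) at 393 bp. The lowest, in Zfp85 and Zfp101, had 4.19 and 4.26 from 4 fragments each. Zfp768, Zfp85 and Zfp101, like Zfp597, Zfp599 and Zfp646, were chosen after their values were seen.

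Several peaks in 1 member lay close together. In 82 of the 125 members with at least 2 peaks (65.6%), all summits lay within 5 kb of each other, against 34.6% of 5729 such protein-coding genes and 48.4% of 91 such Zfp genes outside clusters. These shares were not matched by span, which limits how far apart summits can lie. The upper quartile of span was 25.9 kb over all members, 36.8 kb over Zfp genes outside clusters and 44.3 kb over protein-coding genes. The part of span in this difference was not tested. The median distance between neighbouring summits of a member was 1223 bp. The peaks were also wide, with a median of 526.5 bp (quartiles 275.8 and 978.5) against 336 bp in protein-coding spans and 482 bp in Zfp genes outside clusters. Over backgrounds from 1 to under 2, the strongest peak of a member had a median width of 883 bp, against 723 bp in Zfp genes outside clusters and 495 bp in protein-coding genes, at median pileups of 26, 27 and 23. Below a background of 0.5 these median widths were 266 bp in the members and 268 bp in protein-coding genes. From 2 to under 5 they were 1078 bp in the members, 1329 bp in the Zfp genes outside clusters and 641 bp in protein-coding genes. The widest, in Zfp646, ran over 5621 bp at chr7:127878557-127884177 with a fold enrichment of 15.3 (12.2 to 19.0). How many methylated sites such a peak holds is not known.

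The largest cluster, of 15 genes from Zfp84 to Zfp146 at chr7:29768552-30169775, had a peak in every member. Its members' highest fold enrichments had a median of 13.0 and ran from 6.50 (3.43 to 11.5) in Zfp940 to 19.2 in Zfp27. Zfp84 stood at 16.5, Zfp790 at 14.9, Zfp382 at 15.3, Zfp74 at 13.0, Zfp82 at 13.0 and Zfp14 at 11.2. Zfp383 had 10.02, Zfp420 9.38 and Zfp566 8.99. Of its 14 members of known strand, 7 read in one direction and 7 in the other. In 12 of the 14 the strongest summit lay within 5 kb of the 3′ end of the span. The others were Zfp940, at 13.6 kb, and Zfp382, at 6.64 kb. Among the 12, Zfp82 and Zfp566 had theirs less than 1 kb from that end, at 387 and 457 bp.

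**Figure D3:**
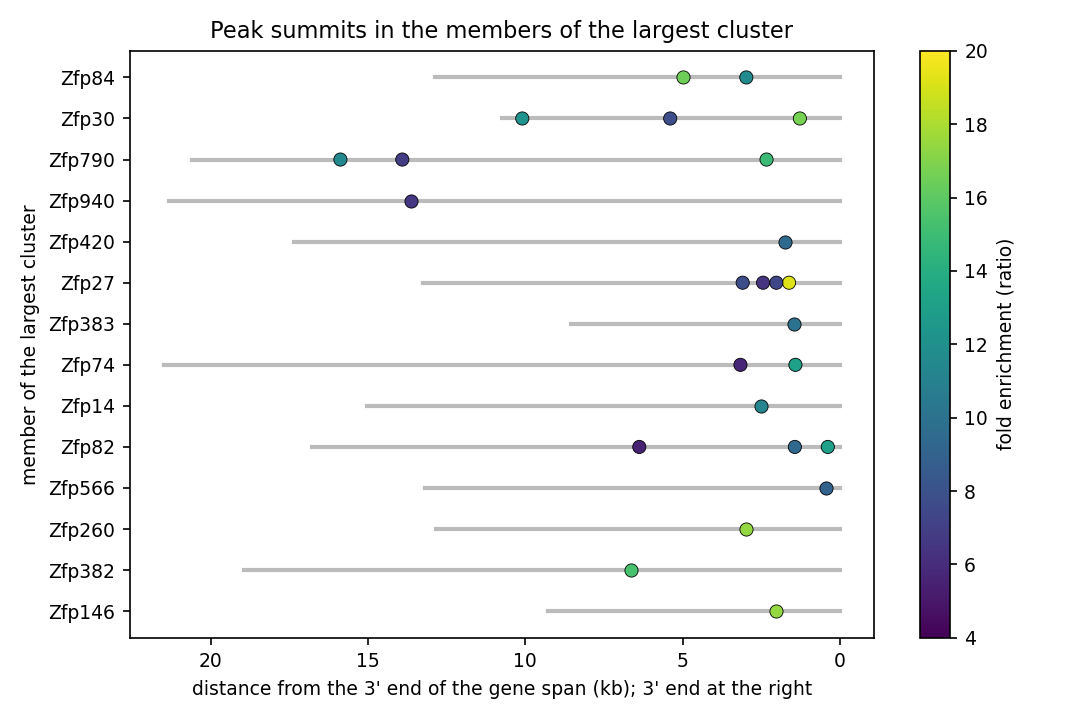
Peak summits (points, coloured by fold enrichment) in the 14 members of known strand of the largest cluster, against distance in kb from the 3′ end of the gene span (horizontal axis, 3′ end at the right); grey lines are the spans. The strongest points, such as Zfp27 at 19.2, lie mostly within 5 kb of the 3′ end, and Zfp940 has its only peak at 13.6 kb.

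Other large clusters differed in level. The 14 genes from Zfp712 to Zfp748 at chr13:67038594-67553152 had peaks in 13 members, with a median of 8.05 and a highest value of 12.5 (8.69 to 17.3) in Zfp87. Zfp456 was lowest there, at 5.10 (2.61 to 9.22), and Zfp455 had no peak. In the 13 genes from Zfp677 to Zfp943 at chr17:21383707-21994366, 12 had a peak, with a median of 10.9 and a highest value of 13.8 (10.3 to 18.1) in Zfp948, and Zfp820 had none. All 10 genes from Zfp180 to Zfp94 at chr7:24081877-24316698 had a peak, with a median of 11.6 and values from 5.07 (2.42 to 9.78) in Zfp114 to 18.7 in Zfp180. Zfp111 stood at 15.5, Zfp109 at 12.1, Zfp61 at 11.6, Zfp112 at 9.91, Zfp235 at 8.10 and Zfp93 at 6.16 in that array. Over the clusters with at least 5 members with a peak, the medians ran from 5.82 to 13.7. The difference between the highest and the lowest member of such a cluster ran from 2.196 to 13.95. The values of neighbouring members had a Spearman correlation of 0.17 over 141 neighbouring pairs, which share library, array and in part sequence.

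**Figure D4:**
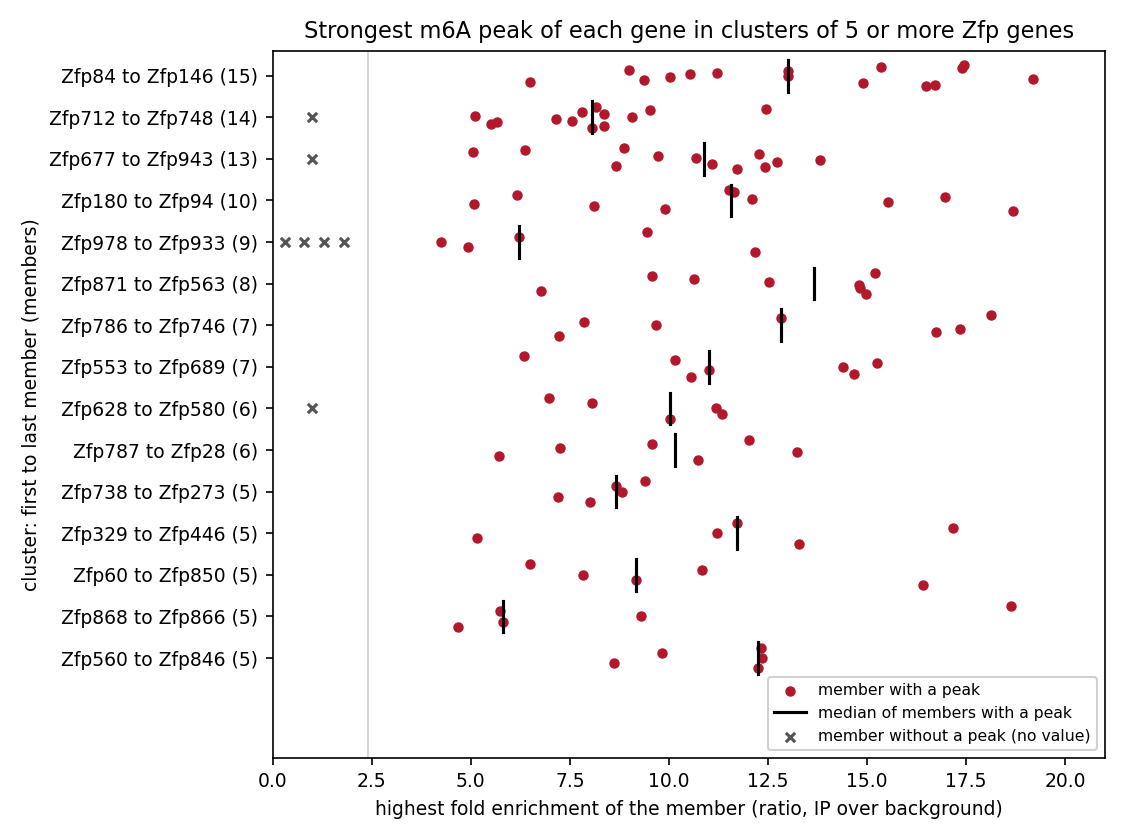
Highest fold enrichment of each member (ratio, horizontal axis) in the 15 clusters of 5 or more Zfp genes (rows, named by first and last member, with the number of members); black bars are medians over members with a peak, and crosses are members without a peak, which have no value. The cluster from Zfp84 to Zfp146 has a median of 13.0 and no member without a peak, and the one from Zfp978 to Zfp933 has 4 members without.

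On chromosome 4 a smaller share of the members had a peak than elsewhere. Of 14 members there, 8 had one (57.1%, 32.6 to 78.6), against 189 of 198 on the other chromosomes (95.5%, 91.6 to 97.6) and 44.9% of all protein-coding genes, a share inside the chromosome 4 interval. The 3 clusters there differed. Zfp992, Zfp981 and Zfp993, at chr4:146449030-146991471, all had peaks, 13 in all, with the 32.8 of Zfp981 among them, and each of the 13 also lay in the span of another gene. Zfp987 and Zfp600, the only members of their cluster, both lacked one, and it was the only one of the 52 clusters with none. In the 9 genes from Zfp978 to Zfp933 at chr4:147124882-147849126, Zfp988, Zfp982, Zfp985 and Zfp534 had no peak. There Zfp933 had 9.46 (6.90 to 12.7), Zfp984 6.23 (3.72 to 9.88), and the single peak of Zfp991, at 4.93, also lay in the span of Zfp978. Only 4 of the 14 had a peak in their span alone.

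Members were also compared by the likeness of their promoters. The promoter of a member was at a median 55.6% identical to that of its closest other member. Over all pairs of members' promoters the median was 49.4%. The first value is higher by construction, since it takes the closest of many, so the gap between them says nothing about likeness. Of the 21 members at 80% or more, 14 had a peak (66.7%, 45.4 to 82.8), against 156 of 162 below 80% (96.3%, 92.2 to 98.3). The 7 without were Zfp965 and, on chromosome 4, Zfp987, Zfp600, Zfp988, Zfp982, Zfp985 and Zfp534. On the other chromosomes 13 of the 14 members at 80% or more had a peak, beside 152 of 158 below, so the difference rested on the 7 chromosome 4 genes at that likeness, of which 1 had a peak. The 4 chromosome 4 members below 80% and the 3 without a promoter in the table all had one. The limit of 80% was chosen after the data were seen, and 2 of those 4 lay just under it, Zfp981 at 79.6% and Zfp984 at 79.5%. With the limit at 70%, 24 of 32 members at or above it had a peak (75%, 57.9 to 86.7). The median of the highest fold enrichment was 7.70 (6.23 to 14.4) in the 14 genes at 80% or more with a peak and 9.87 (9.37 to 11.02) in the 156 below. How reads that fit several copies were treated is not given in the sources used here, and its part in these counts was not tested.

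**Figure D5:**
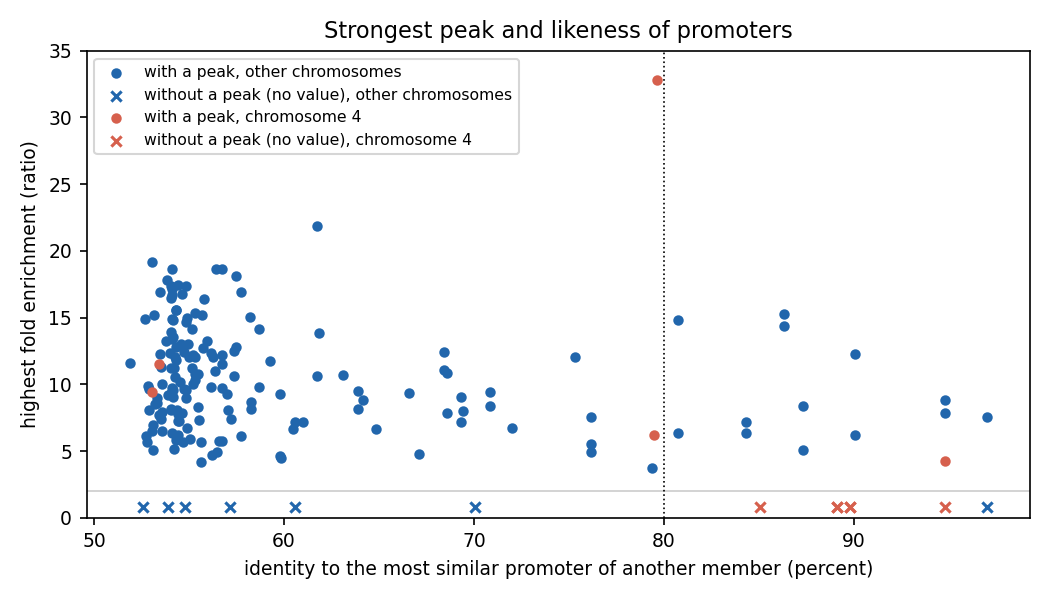
Highest fold enrichment (ratio, vertical axis) of the 183 members with a promoter in the table against the identity of that promoter to its closest counterpart in another member (percent, horizontal axis); crosses under the grey line are members without a peak, which have no value, and the dotted line marks 80%. Right of that line 14 of 21 members have a peak, and 6 of the 7 crosses there, some of which overlap, are on chromosome 4.

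Outside chromosome 4, 9 members had no peak. They were Zfp692, Zfp455, Zfp820, Zfp345, Zfp965, Zfp524, Zfp575, Zfp819 and Zfp92, each in a different cluster, and each of these 9 clusters had a peak in another member. Zfp524 and Zfp575 were short, with spans of 3.28 and 4.00 kb. Both had no promoter sequence to compare, and among the others of these 9 only Zfp965 was at 80% promoter identity or more. In 41 of the 52 clusters every member had a peak. Read depth outside peaks is not analysed here, so a gene that is not expressed and one that is not methylated cannot be told apart.

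The promoters of the members differed in their content of CG dinucleotides. Those of clustered Zfp genes held a median of 11 in 300 bases (204 promoters of 183 genes), against 17 in Zfp genes outside clusters and 13 in all protein-coding genes. A count of 10 or more was reached by 59.8% of the members' promoters and 56.7% of those of all protein-coding genes. The promoters of members without a peak held a median of 5 (17 promoters of 13 genes), those of members with a peak 12 (187 promoters of 170 genes). Among these 13 genes were the 6 chromosome 4 members without a peak. Their promoters were 85.1 to 94.8% identical to the closest one of another member, so they do not count as independent sequences. Whether the difference in CG content holds without chromosome 4 was not tested.

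The partners of KRAB zinc finger proteins were counted in the same way. Of 32 corepressor and heterochromatin genes, 21 had a peak (65.6%, 48.3 to 79.6), with a median of 11.4 for the highest fold enrichment per gene. Over all protein-coding genes the share was 44.9%, below that interval, and the median 9.36. The list was not matched by span, and it holds long genes such as Atrx, of 131.8 kb. By span, the share of all protein-coding genes was 51.1% from 20 to 50 kb and 65.5% from 50 kb upwards. Both lie inside the interval of the list, whereas 27.3% under 10 kb and 46.4% from 10 to 20 kb lie below it. Trim28 itself had no peak, whereas Setdb1, the methyltransferase it recruits, had 8.90 (6.34 to 12.2) and Atf7ip, the partner that stabilizes SETDB1, had 14.6 (10.9 to 19.1). The highest were the remodellers Chd4, at 24.5 (19.5 to 30.4), and Chd3, at 21.1 (16.8 to 26.2), with Ehmt1, which methylates histone H3, at 22.6 (17.9 to 28.1) and the histone chaperone Daxx at 21.8 (16.1 to 29.0). Among the subunits of the HUSH silencing complex, Tasor had 12.6 (8.69 to 17.7), Mphosph8 11.6 (8.36 to 15.7) and Pphln1 none. Of the heterochromatin proteins HP1, Cbx1 had 11.4 (7.78 to 16.1), Cbx5 6.05 (4.03 to 8.77) and Cbx3 none. The deacetylase genes Hdac1 and Hdac2, the DNA methylation genes Uhrf1 and Dnmt3b, and Mta1, Mta2, Atf7ip2 and Suv39h2 also had none.

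Small sets of cell type markers were also looked up in the peak list. All 4 stromal, 3 smooth muscle and 3 endothelial markers had a peak, as did 3 of 4 epithelial markers, without Krt18. None of 3 leukocyte and none of 3 embryo markers had one, and 1 of 3 red blood cell markers (Alas2, 7.88) and 1 of 3 ovary and oviduct markers (Ovgp1, 7.91) did. The 44.9% of all protein-coding genes lay inside the interval of every set but the stromal (51.0 to 100). For none of 3 the interval was 0 to 56.1, and for 3 of 3 it was 43.9 to 100. So these counts do not settle which cells the sample held, and a marker without a peak can still be expressed.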

How the data were processed

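The authors' single peak list was analysed, from 1 IP and 1 input sample. The submitters' processing notes name HISAT2 2.2.1, MACS3 3.0.0a7 and mm10. Their options, and any pooling, are not stated. The deposited fold enrichment is a ratio, the deposited p-value and q-value are −log10 values with a lowest −log10 q of 1.31, and the deposited score is 10 times −log10 q to within 1. Pileup and background were solved from fold enrichment and Poisson p-value. The pileup was whole, within 0.05 of the step between whole values, in 99.96% of peaks and in every member's peak. The solver was tested on simulated data made with the formula it inverts, and recovered 100% of 1537 pileups. Genes came from 49976 RefSeq genes with a position on GRCm38.p6, and strand and promoters, 250 bases before to 50 after the start, from RefSeq. Promoters were aligned end to end. Protein sequences were not used here, so promoter identity took the place of the protein identity in the design, and fingers were not counted. Coordinates count from 1. The members, the lists and the rule for named genes (the members highest or lowest in fold enrichment, number of peaks, significance or background, those without a peak, those of the 5 largest clusters, and members of known function) were chosen with earlier results of these data known. Replicates do not exist, and no p-value was computed. Scripts ran under Python 3.11.15 with Biopython 1.88, scipy 1.17.1, pandas 2.3.3, matplotlib 3.10.9 and numpy 2.4.6.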

Additional observations from a re-analysis of the deposited data

How the results depend on the processing

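Of 59 recomputed values, 56 kept within 1.5 times the reported count or inside the interval of the reported value. With 197 of 212 members carrying a peak, a rise to 1.5 times that count could not occur. Some counts were also compared over other numbers of genes, so keeping within this wide band says little. The alternatives kept peaks from −log10 q 5, from fold enrichment 4 or from 10 fragments, summits in exactly 1 gene, any or 50% overlap, clusters at 50 or 200 kb and, added after the data were seen, leaving out chromosome 4 or spans over 100 kb. Members with a peak ranged from 178 of 190, with clusters at 50 kb, to 211 of 230, with clusters at 200 kb. Their share ranged from 85.8% (182 of 212) to 95.5% (189 of 198). The members' different peaks ranged from 345 to 434, and the share of summits in the last 25% of the span from 58.8 to 61.5%. Zfp genes outside clusters with a peak ranged from 116 of 136, at 200 kb, to 149 of 176, at 50 kb. Their share ranged from 79.2% (122 of 154) to 85.7% (132 of 154). The corepressor count stayed at 21. The median of the highest fold enrichment became 8.26 when each gene's peaks were summarised by their median, which is lower by construction. With the limit of promoter identity, chosen after the data were seen, at 70% instead of 80%, 24 of 32 members had a peak, and at 90%, 6 of 8. The planned protein identity and finger counts were not run, since protein sequences were not used here. No paired analysis was possible because each group has 1 sample and only the IP sample has a peak list. Depth limits the low peaks: 63 of the 408 rest on fewer than 10 fragments.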
